A study of Mus musculus with 14 samples.

Results

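Interferon response genes are the transcripts that cells raise after sensing interferon, and 34 of them, named by symbol, were followed here through early B cell development and in marrow cells without Pax5. Of the 34, 32 were measured among the 18193 genes of the array table, each read by the brightest of its probe sets, averaged over the 14 arrays. Isg15 and Ifi44 had no probe set carrying their symbol alone and were not analysed here.

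Transcripts were read on 14 Affymetrix arrays of sorted mouse bone marrow cells in 6 groups. Pax5KO engrafted cells (n = 3 arrays) descend from day 15 fetal liver that lacks Pax5, a transcription factor on which B lineage commitment depends, and WT engrafted cells (n = 3) from day 15 wild type fetal liver. Donors of both kinds carried a reporter for λ5, the surrogate light chain encoded by Igll1. Their liver cells went into sublethally irradiated wild type hosts, and B220+ λ5 reporter+ cells were taken from the host marrow 4 weeks later. CLP of the Ly6D- and the Ly6D+ kind, ProB and PreB cells (n = 2 each) came from wild type mice without irradiation or transplant; CLP stands for common lymphoid progenitors, of which the Ly6D+ kind leans to the B lineage. All groups share the strain C57Bl6 and an age of 8 to 12 weeks. The labels call the arrays of a group biological replicates but do not say how many mice stand behind each, which part of Pax5 is deleted, or the gates of the groups without transplant. The irradiated hosts keep marrow cells of their own, and the reporter is what separates donor cells from them. In bulk RNA of this kind, fewer cells of a type and less RNA per cell cannot be told apart.

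Type I interferons bind the receptor pair Ifnar1 and Ifnar2, which activates the kinases Jak1 and Tyk2. The signal passes to Stat2, which acts with Irf9 in a complex that binds the interferon-stimulated response element (ISRE) at target genes. The targets include sensors of viral RNA and DNA, the transcription factor Irf7 that amplifies interferon production, brakes such as Usp18, and effectors that degrade RNA, block translation or keep viruses from entering and leaving cells. Stem and progenitor cells are known to hold part of this program at a basal level.

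The promoters of the members whose transcripts differed most show how unevenly the ISRE core stands next to their start sites. The RefSeq promoter table (build GRCm38.p6) held windows for 25 of the 34 members, 28 windows in all, and the 250 bases before each annotated start were searched on both strands. The ISRE core was spelled as GAAA, any 2 bases and GAAA, and matches may overlap. It stood in 9 of the 28 windows (32.1%) against 2.98% of all 32851 windows of the table. The core of the GAS element, a site through which interferon-γ acts, was spelled as TTC, any 3 bases and GAA, and stood in 4 of 28 (14.3%) against 7.02% of all windows. Below, the windows are written on the strand of the gene, with the ISRE core in capitals. Ifitm3 (chr7:141010745-141010994, minus strand) and Dtx3l (chr16:35939028-35939277, minus strand) are shown because they had, of the members, the largest difference in the 6 comparisons and the lowest adjusted p over the groups, and no match in the window. Bst2 (chr8:71537473-71537722, minus strand), Rsad2 (chr12:26456453-26456702, minus strand) and Oas1a (chr5:120907526-120907775, minus strand) are shown as members with a match and different patterns.
Ifitm3: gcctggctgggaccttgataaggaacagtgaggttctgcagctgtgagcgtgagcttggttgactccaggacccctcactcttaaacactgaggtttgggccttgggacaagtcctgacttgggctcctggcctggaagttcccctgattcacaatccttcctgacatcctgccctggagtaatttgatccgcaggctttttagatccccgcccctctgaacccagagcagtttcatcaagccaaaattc
Dtx3l: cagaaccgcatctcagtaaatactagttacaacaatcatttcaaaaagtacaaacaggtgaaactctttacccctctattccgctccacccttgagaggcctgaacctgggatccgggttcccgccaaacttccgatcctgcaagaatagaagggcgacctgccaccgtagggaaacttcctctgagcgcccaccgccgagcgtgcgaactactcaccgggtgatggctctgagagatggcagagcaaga
Bst2: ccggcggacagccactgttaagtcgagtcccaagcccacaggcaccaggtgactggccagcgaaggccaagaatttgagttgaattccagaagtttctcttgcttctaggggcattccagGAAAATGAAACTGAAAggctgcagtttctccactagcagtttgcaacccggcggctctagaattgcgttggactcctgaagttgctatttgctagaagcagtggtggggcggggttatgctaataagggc
Rsad2: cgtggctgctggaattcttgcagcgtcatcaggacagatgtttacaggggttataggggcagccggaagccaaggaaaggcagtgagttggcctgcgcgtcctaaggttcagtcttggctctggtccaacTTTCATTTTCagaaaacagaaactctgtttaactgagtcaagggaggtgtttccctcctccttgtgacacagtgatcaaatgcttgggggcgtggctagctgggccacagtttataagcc
Oas1a: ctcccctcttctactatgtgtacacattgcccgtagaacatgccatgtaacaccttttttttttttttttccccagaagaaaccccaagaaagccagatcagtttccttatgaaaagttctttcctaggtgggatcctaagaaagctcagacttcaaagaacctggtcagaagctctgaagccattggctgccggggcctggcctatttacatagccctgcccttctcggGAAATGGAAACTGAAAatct
In Bst2 and in Oas1a a pair of matches overlaps. The last base of the nearer match lay 114 bases before the window's end in Bst2, 4 bases before it in Oas1a and 110 bases before it in Rsad2. A match of letters is a description and not a bound site, and its absence from a window says nothing about the factor.

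Values are log2 signals as deposited, so a difference of 1 is a doubling of the signal. The table has a floor at 2.32, and a group is called at the floor here if none of its arrays lay more than 0.5 above it; a difference from such a group is a lower bound. Tests were limma's over all 18193 genes with Benjamini-Hochberg adjustment, and a gene was called where the adjusted p was under 0.05.

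The labels were set against marker genes and against other features of the arrays. Ly6d read 3.61 and 3.02 for Ly6D- CLP and 11.25 and 10.30 for Ly6D+ CLP, and Igll1 read 11.41 or more on every engrafted array. Cd2 and Il2ra, which mark later B precursors, were at the floor in ProB and well above it in PreB. The Pax5 transcript was called higher in Pax5KO engrafted cells than in ProB and was not called between the engrafted groups. Those groups also differed in markers of B cell stage. Of 16 such genes 3 (Flt3, Kit and Dntt) were higher in Pax5KO cells, against 3.64% of all genes. Another 4 (Cd79a, Cd79b, Cd2 and Ms4a1) were lower, against 2.29%. Loss of Pax5 and stage cannot be told apart in that comparison. Xist, the transcript of the inactive X chromosome, was high (10.7 to 13.2) on the 3 Pax5KO arrays, WT array 3 and both ProB arrays, and low (at most 2.73) on WT arrays 1 and 2 and on all CLP and PreB arrays. The sex of the cells therefore cannot be told apart from the step in ProB against CLP and in PreB against ProB. It was also unbalanced between the engrafted groups and in WT engrafted cells against ProB, since only array 3 of the WT arrays had high Xist. Both PreB arrays carried transcripts of other blood cells: the mean of 9 neutrophil markers was 8.49 and 8.96 there and at most 5.01 elsewhere but for Ly6D- CLP array 2 (7.65). The ProB arrays read plasma cell transcripts, with a mean over 6 markers of 9.04 and 9.31 against at most 7.53 on any other array. The 3' to 5' difference of the actin probes was 7.27 and 6.71 on the PreB arrays and between 2.51 and 5.57 on the others.

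As a group, the members were at their highest in CLP, lowest in ProB and PreB cells, and between these in WT engrafted cells, with Pax5KO engrafted cells at the level of Ly6D+ CLP. The mean log2 signal over the 32 members was 7.09 ± 0.22 (SD, n = 2) in Ly6D- CLP and 6.77 ± 0.20 (SD, n = 2) in Ly6D+ CLP. It was 5.45 ± 0.11 (SD, n = 2) in ProB and 5.40 ± 0.02 (SD, n = 2) in PreB. The engrafted groups stood at 6.83 ± 0.06 (SD, n = 3) without Pax5 and 6.36 ± 0.35 (SD, n = 3) with it. Ranked, Ly6D- CLP, Pax5KO and Ly6D+ CLP come first, and the Pax5KO arrays (6.77 to 6.90) lay within the range of Ly6D+ CLP (6.62 and 6.91). WT engrafted arrays (5.95 to 6.59) lay below all of these, and ProB (5.37 and 5.53) and PreB (5.38 and 5.41) overlapped at the bottom. Ly6D- CLP array 2, with the neutrophil transcripts given above, had the highest mean of all arrays (7.25, against 6.94 on Ly6D- CLP array 1). The part of such cells in that level was not tested. The mean over all genes moved little, between 4.75 and 5.02 per array. The lowest group mean was in ProB for 13 members and in PreB for 12, where 21.5% and 25.5% of all genes above the floor had theirs. The highest group mean was in Ly6D- CLP for 14 members, against 19.4% of all such genes.

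**Figure D1:**
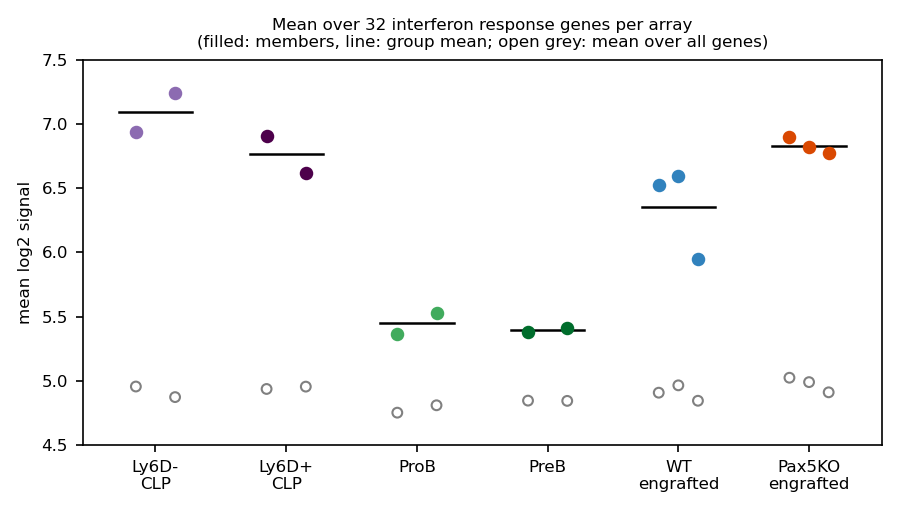
Mean log2 signal over the 32 measured interferon response genes on each array (filled points, with a line at the group mean) and over all genes (open grey points), by group. The ProB and PreB arrays sit between 5.37 and 5.53 and every other array at 5.95 or above.

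WT array 3 stood apart within its group. It was the lowest of the 3 WT arrays for 23 of the 32 members, against 36.9% of all genes, and its mean over members was 5.95 against 6.52 and 6.59 on the others. It is the WT array with high Xist, and its 3' to 5' difference of the Gapdh probes was 5.44 against 2.61 and 3.02. Pax5KO array 3, where that difference was 5.79, had a mean over members of 6.77 against 6.90 and 6.82 on Pax5KO arrays 1 and 2. The part of either feature in the lower member levels of WT array 3 was not tested. Without it, the Pax5KO minus WT difference of the means was 0.27 in place of 0.48.

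The number of members that passed the test differed widely between comparisons. Between the engrafted groups, which differ in Pax5 genotype and in the stage markers above, 4 members were higher and 1 lower in Pax5KO cells. There 5.94% of all genes were called (3.64% higher and 2.29% lower). From Ly6D- to Ly6D+ CLP no member was called by limma, with 7 members at an unadjusted p under 0.05 and 1.45% of all genes called. From Ly6D+ CLP to ProB 10 members fell and none rose, against 5.36% of all genes that fell and 7.29% called. From ProB to PreB 3 rose and 2 fell, against 11.5% of all genes called (6.35% higher and 5.19% lower). WT engrafted cells had 5 members above and 1 below ProB, against 4.93% of all genes called (3.63% higher and 1.3% lower). Pax5KO engrafted cells had 11 above and none below ProB, against 4.22% of all genes that were higher, 1.02% that were lower and 5.24% called. A test over the 6 groups at once called 17 of the 32 members, where 21.4% of all genes were called. The median difference over the 32 members was -1.29 from Ly6D+ CLP to ProB, 0.88 from ProB to WT engrafted, 1.36 from ProB to Pax5KO engrafted and 0.32 from WT to Pax5KO engrafted, where that of all genes, many of them at the floor, was 0. Over genes above the floor alone the median was 0.13 from ProB to Pax5KO engrafted cells. Quantile normalization, which takes this shift away, gave members' medians of 0.85 from ProB to Pax5KO engrafted and 0.16 from WT to Pax5KO engrafted cells. The comparisons with ProB share its 2 arrays.

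These counts rest on few arrays. With the number as a block, the fit of the 6 engrafted arrays alone called none of the 32 members and 0.506% of all genes between the engrafted groups, and that of all arrays called 5 members. The 5 calls between the engrafted groups became 1 without Pax5KO array 1, 3 without array 2 or 3, and 2 without WT array 1 or 3. The 10 calls at the ProB step became 6 without ProB array 1 and 5 without ProB array 2. The 11 calls of Pax5KO cells against ProB became 4 without ProB array 2, 6 without Pax5KO array 1 and 7 without Pax5KO array 2 or 3. The 6 calls of WT engrafted cells against ProB became 3 without ProB array 2 and 2 without WT array 1. The 5 calls from ProB to PreB became 3 without PreB array 2, PreB array 3 or ProB array 2, and the 0 calls within CLP became 2 without Ly6D+ array 1 or Ly6D- array 1. With a term for high Xist, 1 member was called at the ProB step and 3 between the engrafted groups. Only WT engrafted cells held both Xist levels, so the term rests on WT array 3 against WT arrays 1 and 2.

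**Figure D2:**
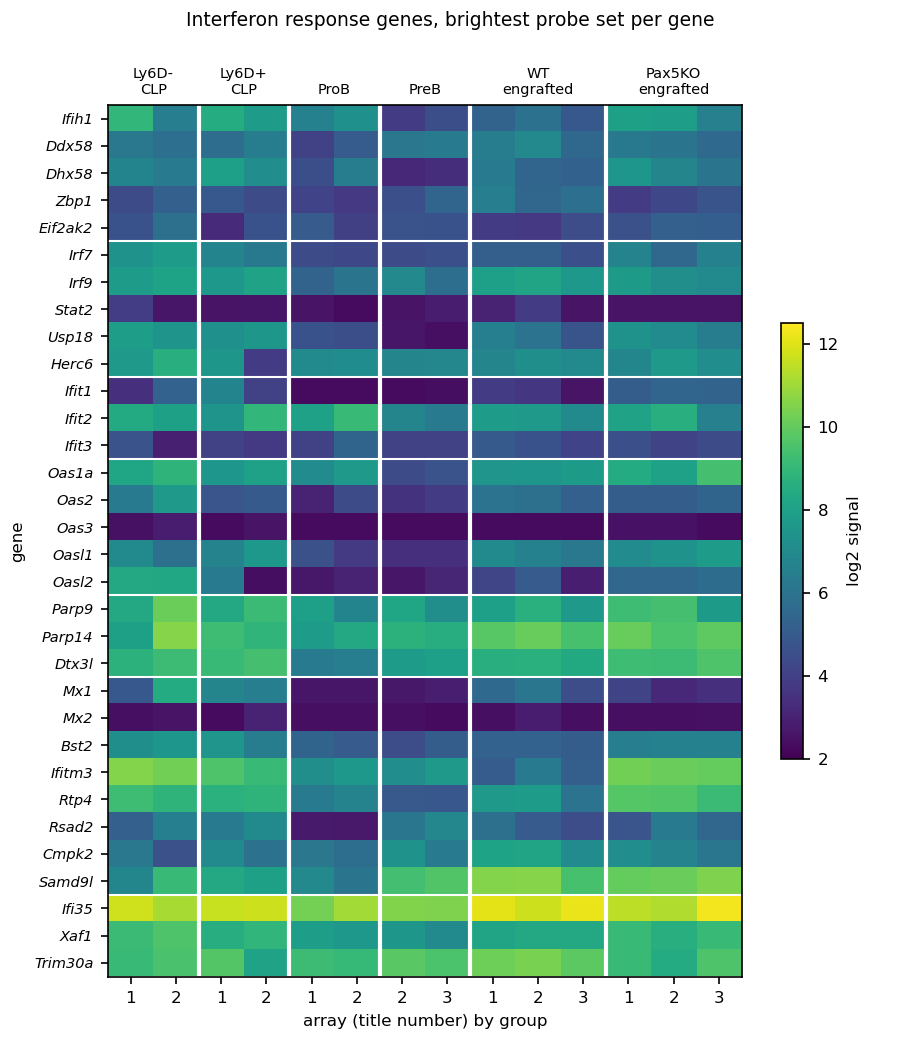
Log2 signal (colour scale) of the 32 measured members (rows) on each of the 14 arrays (columns, by group and title number). Mx2, Oas3 and Stat2 are at or near the floor in most groups, and Usp18, Oasl1, Rtp4 and Irf7 are bright in CLP and dim in ProB and PreB.

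**Figure D3:**
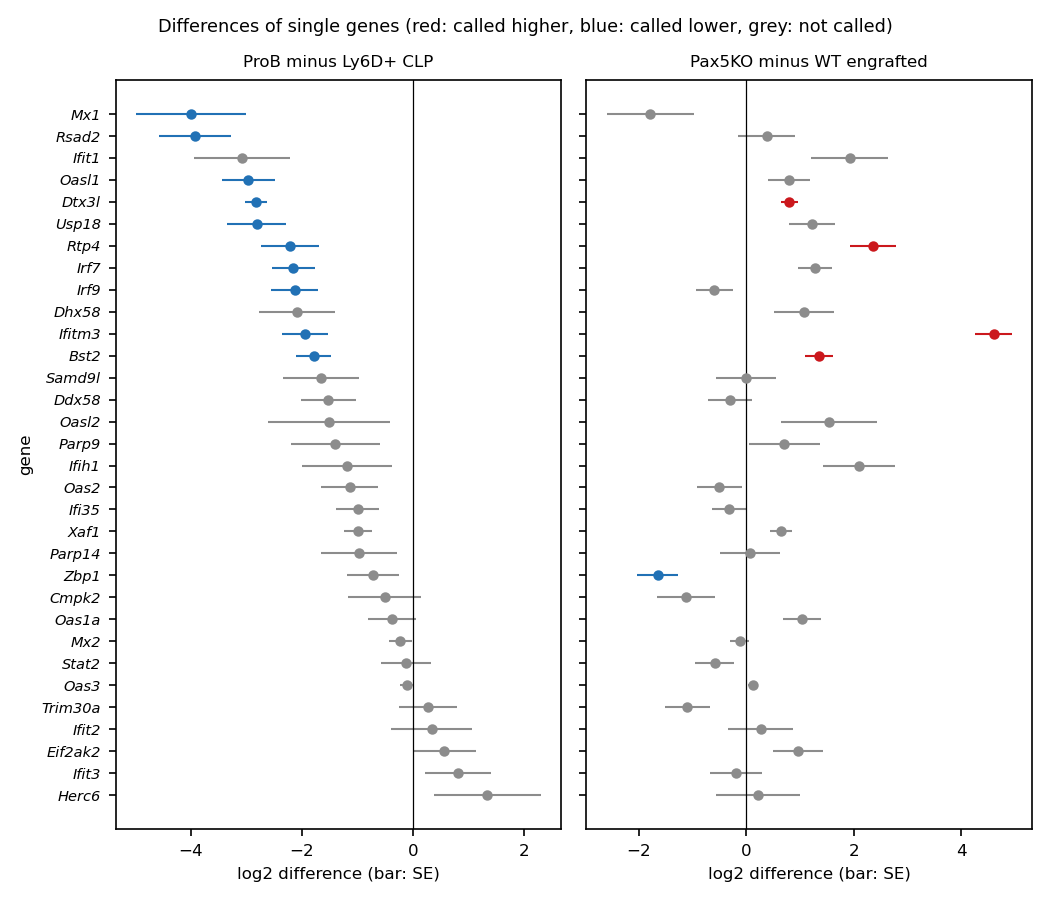
Log2 difference (points) with its standard error (bars) of each member in the comparisons named above the panels; red marks members called higher, blue those called lower and grey those not called. Calls at the ProB step all lie left of 0. Of the calls between the engrafted groups, Bst2, Ifitm3, Rtp4 and Dtx3l lie right of 0 and Zbp1 lies left of it.

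Among the sensors of viral nucleic acid, Zbp1, which binds nucleic acid in the Z form and can start cell death, was the 1 member called lower without Pax5. Zbp1 read 3.85, 4.28 and 4.73 in Pax5KO and 6.50, 5.45 and 5.84 in WT engrafted cells. ProB read 4.12 and 3.74, PreB 4.54 and 5.42, and the CLP groups between 4.40 and 5.24. The WT engrafted arrays were thus the highest of all 14 and did not overlap with the Pax5KO arrays. The Pax5KO minus WT difference was -1.64 (SE 0.38, adjusted p = 0.0397), and WT engrafted cells stood 2.0 above ProB (SE 0.42, adjusted p = 0.0339). The first call did not hold with the replicate number as a block (adjusted p = 0.082), nor on leaving out WT array 1 or 3 or Pax5KO array 1 or 2 (0.0845 to 0.148). The second ended without ProB array 1 or 2 or WT array 1 or 3 (0.0513 to 0.170), and tested alone neither of the 2 Zbp1 probe sets was called between the engrafted groups.

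Ifih1 encodes MDA5, which senses long double-stranded RNA, and it had the largest difference between the engrafted groups of the members that were not called. Ifih1 read 7.97, 7.90 and 6.57 in Pax5KO and 5.34, 5.92 and 4.90 in WT engrafted cells, without overlap (difference 2.10, SE 0.66, adjusted p = 0.133). In CLP it read 8.97, 6.48, 8.51 and 7.78, in ProB 6.62 and 7.29, and in PreB 3.82 and 4.53. PreB was the lowest group, 2.78 below ProB (SE 0.81, adjusted p = 0.0643). Dhx58, which encodes the regulator LGP2 of the same sensor family, had a similar order. It read 7.93 and 7.15 for Ly6D+ CLP, 4.52 and 6.39 in ProB, and 3.19 and 3.37 in PreB, and neither the difference of -2.09 at the ProB step (adjusted p = 0.123) nor that of -2.18 at the PreB step (adjusted p = 0.081) passed. Ddx58, the gene of the sensor RIG-I, and Eif2ak2, the gene of the kinase PKR that stops translation on double-stranded RNA, passed in no comparison. Their group means ranged from 4.57 to 6.27 and from 3.95 to 5.26.

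Of the transcription factors and signalling members, Irf7 and Usp18 were high in CLP, low in ProB, and high again in Pax5KO cells. Irf7, which drives the genes of interferon-α, read 7.36 and 7.79 for Ly6D- CLP and 6.75 and 6.25 for Ly6D+ CLP. ProB read 4.42 and 4.27, PreB 4.42 and 4.55, WT engrafted 5.19, 5.19 and 4.58, and Pax5KO 6.68, 5.54 and 6.60. No Pax5KO array overlapped with a WT engrafted or a ProB array. Irf7 fell by 2.15 from Ly6D+ CLP to ProB (SE 0.39, adjusted p = 0.0123) and stood 1.92 higher in Pax5KO than in ProB cells (SE 0.35, adjusted p = 0.0171). Between the engrafted groups its difference was 1.29 (SE 0.32, adjusted p = 0.0525). Without ProB array 2 the first call ended (adjusted p = 0.0613), and without that array or Pax5KO array 1 the second did (0.0583 to 0.0884).

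Usp18 removes the ubiquitin-like protein Isg15 from its targets and dampens signalling at the interferon receptor. It read 7.86 and 7.42 for Ly6D- CLP, 7.26 and 7.55 for Ly6D+ CLP, 4.65 and 4.53 in ProB, and 2.66 and 2.45 in PreB, where it was at the floor. WT engrafted cells read 6.51, 5.99 and 4.71 and Pax5KO cells 7.40, 7.06 and 6.42, so that the engrafted groups overlapped. It fell by 2.82 from Ly6D+ CLP to ProB (SE 0.53, adjusted p = 0.0148) and by at least 2.04 from ProB to PreB (SE 0.53, adjusted p = 0.0408), and Pax5KO cells stood 2.37 above ProB (SE 0.48, adjusted p = 0.0261). The call at the ProB step ended without Ly6D+ CLP array 2 or ProB array 2 (0.0583 to 0.0676), that at the PreB step without any 1 of the 4 arrays (0.112 to 0.159), and that in Pax5KO cells without Pax5KO array 1 or 2 or either ProB array (0.0599 to 0.120).

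Irf9, the DNA-binding part of the complex that carries the type I signal, did not share the Pax5KO pattern. It read 7.79, 8.10, 7.61 and 8.05 in CLP, 5.34 and 6.06 in ProB, and 6.95 and 5.81 in PreB. WT engrafted cells read 7.94, 8.13 and 7.61 and Pax5KO cells 7.72, 7.20 and 6.97. Both engrafted groups stood above ProB, by 2.19 in WT (SE 0.38, adjusted p = 0.0146) and by 1.60 in Pax5KO (SE 0.38, adjusted p = 0.0497), and Irf9 fell by 2.13 from Ly6D+ CLP to ProB (SE 0.42, adjusted p = 0.0179). The Pax5KO call ended without any 1 of the 5 arrays of that comparison (0.064 to 0.189), the WT call without WT array 1 or 2 (0.0524 to 0.0527), and the ProB call without Ly6D+ CLP array 2 or ProB array 1 (0.0638 to 0.0753). Stat2, another part of that complex, was at the floor in Ly6D+ CLP, ProB, PreB and Pax5KO cells and reached 3.91 at most. Herc6, which attaches Isg15 to proteins in mice, read between 6.78 and 8.60 on all arrays but Ly6D+ CLP array 2 (3.83). Its difference of -2.43 between the CLP groups (adjusted p = 0.419) was -0.57 without that array, -4.29 and called without Ly6D+ CLP array 1 (adjusted p = 7.27e-04), and -0.45 with its probe sets averaged.

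The IFIT proteins bind foreign RNA and block its translation, and none of the 3 passed in any comparison. Ifit1 was at the floor in ProB (2.32 on both arrays) and PreB (2.32 and 2.41). It read 3.45 and 5.31 for Ly6D- CLP and 6.76 and 4.05 for Ly6D+ CLP. Pax5KO cells read 5.11, 5.42 and 5.33 and WT engrafted cells 3.88, 3.65 and 2.55, again without overlap. The differences were at least 2.96 between Pax5KO and ProB (SE 0.80, adjusted p = 0.0784), at least 3.08 between Ly6D+ CLP and ProB (SE 0.87, adjusted p = 0.0762), and 1.93 between the engrafted groups (SE 0.71, adjusted p = 0.211). Ifit2, which lies beside Ifit1 on chromosome 19, had another order. It was highest in ProB (7.99 and 9.10) and lowest in PreB (6.78 and 6.33), a difference of -1.99 (SE 0.73, adjusted p = 0.138). Ifit3 read between 2.91 and 5.39 on all arrays.

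The OAS family makes or resembles enzymes whose product switches on RNase L, and its members separated the B cell stages in different ways. Oas1a read 8.22 and 8.82 for Ly6D- CLP, 7.52 and 8.00 for Ly6D+ CLP, and 7.08 and 7.67 in ProB, and then 4.41 and 4.67 in PreB. Its difference from Ly6D+ CLP to ProB was -0.38 (adjusted p = 0.765), and it fell by 2.84 at the PreB step (SE 0.43, adjusted p = 0.00392). The call held without any 1 array; it ended with only the 2 groups in the fit and with a term for high Xist. WT engrafted cells read 7.46, 7.51 and 7.73 and Pax5KO cells 8.45, 7.99 and 9.39, without overlap (difference 1.04, SE 0.35, adjusted p = 0.161).

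Oasl1, which restrains the translation of Irf7, fell a step earlier. It read 6.99, 5.88, 6.71 and 7.61 in CLP, 4.62 and 3.77 in ProB, and 3.44 and 3.45 in PreB. Both engrafted groups read at the CLP level, with 7.0, 6.61 and 6.19 in WT and 7.05, 7.36 and 7.75 in Pax5KO cells. It fell by 2.96 from Ly6D+ CLP to ProB (SE 0.48, adjusted p = 0.00734), and stood above ProB by 2.40 in WT (SE 0.44, adjusted p = 0.0184) and by 3.19 in Pax5KO engrafted cells (SE 0.44, adjusted p = 0.00416). The WT call ended without ProB array 2 or WT array 1 or 2 (0.0559 to 0.110), while the others held without any 1 array.

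Oas2 and Oasl2 were highest in Ly6D- CLP but passed in no pairwise comparison. Oas2 read 6.34 and 7.64 there and 4.75 and 4.98 for Ly6D+ CLP, a difference of -2.12 (SE 0.51, adjusted p = 0.108). Without Ly6D- CLP array 1 the difference was -2.77. That value rests on Ly6D- CLP array 2 alone, the array with the neutrophil transcripts given above (mean 7.65). With genes at the floor left out of the test, the difference between the CLP groups was called (adjusted p = 0.0482). Oas2 read 6.0, 5.86 and 5.23 in WT engrafted cells against 3.05 and 4.40 in ProB, a difference of 1.97 (SE 0.47, adjusted p = 0.051). Oasl2 read 8.32 and 8.24 for Ly6D- CLP and 6.33 and 2.39 for Ly6D+ CLP, a difference of -3.93 (SE 1.10, adjusted p = 0.171). Without Ly6D+ array 2 the Oasl2 difference was -1.96 (adjusted p = 0.294), and without Ly6D+ array 1 it was -5.90 and called (adjusted p = 0.00186). It was 5.47, 5.48 and 5.73 in Pax5KO cells and 4.19, 5.0 and 2.88 in WT cells, with ProB at 2.66 and 3.02 (Pax5KO minus ProB 2.72, SE 1.0, adjusted p = 0.209). Oas3 was at the floor in all groups but Ly6D- CLP, where it read 2.49 and 2.84.

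The largest difference of any member in the 6 comparisons was that of Ifitm3 between the engrafted groups. Ifitm3 is a membrane protein that keeps enveloped viruses from fusing with endosomes. It read 10.26, 10.10 and 10.04 in Pax5KO and 5.06, 6.36 and 5.18 in WT engrafted cells. In the groups without transplant it read 10.55 and 10.25 for Ly6D- CLP, 9.63 and 9.10 for Ly6D+ CLP, 7.21 and 7.61 in ProB, and 7.13 and 7.64 in PreB. The Pax5KO arrays thus lay at the level of Ly6D- CLP and the WT engrafted arrays below ProB and PreB. The Pax5KO minus WT difference was 4.60 (SE 0.34, adjusted p = 9.6e-05). Pax5KO cells stood 2.72 above ProB (SE 0.38, adjusted p = 0.00443), WT engrafted cells 1.88 below it on the log2 scale (difference -1.88, SE 0.38, adjusted p = 0.028), and ProB 1.95 below Ly6D+ CLP (difference -1.95, SE 0.41, adjusted p = 0.0243). The engrafted difference was called without any 1 array and with the block in the fit of all arrays (adjusted p = 9.04e-04). In a fit of the 6 engrafted arrays alone with the block it was 0.116, where none of the 32 members was called. The fall from CLP to ProB ended without Ly6D+ CLP array 1 or either ProB array (0.0612 to 0.0893), and the WT call against ProB without ProB array 2 or WT array 1 or 3 (0.0632 to 0.147).

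Ifitm3 was not alone in its family. Ifitm1 and Ifitm2, paralogs that lie beside it on chromosome 7 and are not among the 34, were the other members of the family in the lists of further interferon-induced genes. Ifitm1 read 10.74, 10.47 and 11.51 in Pax5KO and 5.35, 5.21 and 6.60 in WT engrafted cells (difference 5.19, SE 0.50, adjusted p = 4.72e-04). Ifitm2 read 8.58, 8.76 and 9.44 against 4.59, 5.84 and 4.89 (difference 3.82, SE 0.56, adjusted p = 0.00462). All 3 genes were higher in Pax5KO cells without overlap. Their courses without transplant differed: Ifitm1 read 9.73 and 8.98 for Ly6D- CLP, 8.16 and 8.13 for Ly6D+ CLP, and 3.65 and 5.15 in ProB, while Ifitm2 read 8.00 and 6.49 for Ly6D+ CLP and 7.09 and 7.49 in ProB. Reads of close paralogs by their probe sets may in part be shared, which was not tested. The Ifitm1 call held also in the fit of the engrafted arrays alone with the block (adjusted p = 0.0497), and that of Ifitm2 did not (0.140).

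Rtp4, a chaperone of membrane receptors that is strongly induced by interferon, and Bst2 (tetherin), which holds budding viruses at the cell surface, were also higher without Pax5. Rtp4 read 9.72, 9.67 and 9.15 in Pax5KO and 7.68, 7.77 and 6.0 in WT engrafted cells. It read 9.25 and 8.83 for Ly6D- CLP, 8.70 and 8.83 for Ly6D+ CLP, 6.39 and 6.71 in ProB, and 4.93 and 4.84 in PreB. The Pax5KO arrays were the only ones besides CLP above 9, and each step down from CLP to ProB to PreB was free of overlap. The differences were 2.36 between Pax5KO and WT (SE 0.43, adjusted p = 0.0129), 2.96 between Pax5KO and ProB (SE 0.48, adjusted p = 0.00931) and -2.21 at the ProB step (SE 0.52, adjusted p = 0.0386). Tested alone, neither of the 2 Rtp4 probe sets was called at the ProB step, and 1 was called in each of the other comparisons named. The engrafted call ended without Pax5KO array 1 or 2 (0.0523 to 0.0568), and the fall to ProB ended without any 1 of its 4 arrays (0.0849 to 0.121).

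Bst2 read 6.51, 6.60 and 6.61 in Pax5KO and 5.29, 5.30 and 5.08 in WT engrafted cells. CLP read 7.21, 7.52, 7.48 and 6.46, ProB 5.37 and 4.99, and PreB 4.49 and 5.08. WT engrafted cells lay at the level of ProB (difference 0.04, SE 0.29) and Pax5KO cells at the lower edge of CLP. The differences were 1.35 between Pax5KO and WT (SE 0.26, adjusted p = 0.0165), 1.39 between Pax5KO and ProB (SE 0.29, adjusted p = 0.0276) and -1.79 at the ProB step (SE 0.32, adjusted p = 0.0112). The engrafted call ended without any 1 array but WT array 2 (0.0514 to 0.0604), the second without any Pax5KO array or ProB array 2 (0.0705 to 0.162), and the third without ProB array 2 (0.0645). Bst2 and Irf7 are also marks of plasmacytoid dendritic cells. The mean of 14 such markers, Bst2 and Irf7 among them, was 4.89 to 5.44 in Pax5KO and 4.43 to 4.60 in WT engrafted cells. Of the 14, 9 had a higher mean in Pax5KO cells, where Bst2 and Tlr7 were called higher and Irf8 lower. Siglech and Cd8a were at the floor in both engrafted groups, Siglech at 2.34 at most. Without transplant, the group mean of the 14 markers was 6.28 in Ly6D- CLP, 5.60 in Ly6D+ CLP, 4.42 in ProB and 5.46 in PreB. The part of such cells in the levels of Bst2 and Irf7 was not tested.

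**Figure D4:**
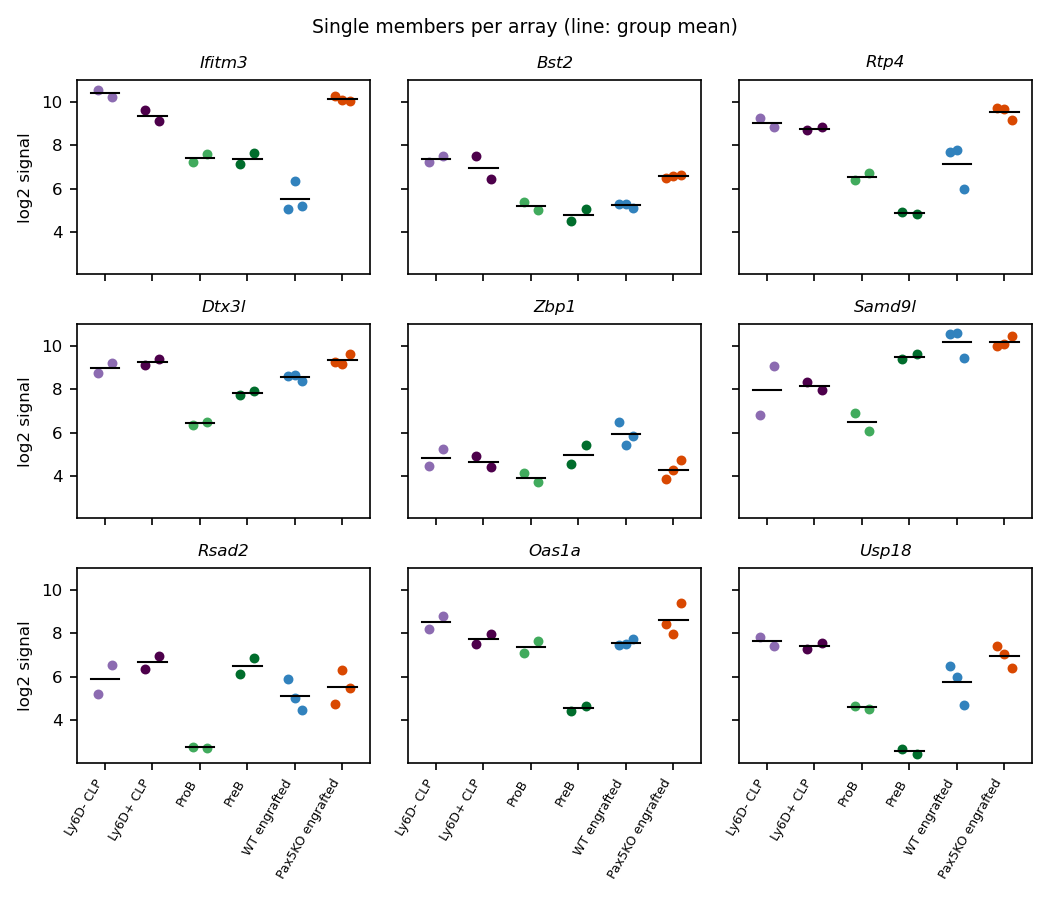
Log2 signal of single members on each array by group, with a line at the group mean. Ifitm3 is near 10 in Pax5KO cells and near 5 to 6 in WT engrafted cells, while Dtx3l is lowest on the ProB arrays.

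Mx1 went the other way between the engrafted groups without passing the test. The Mx1 protein is a dynamin-like GTPase against influenza, and common laboratory strains are known to carry a defective allele, so its signal here is only that of a transcript. Mx1 read 4.16, 3.20 and 3.43 in Pax5KO and 5.57, 6.12 and 4.46 in WT engrafted cells (difference -1.78, SE 0.81, adjusted p = 0.353). It read 4.89 and 8.45 for Ly6D- CLP and 6.80 and 6.50 for Ly6D+ CLP, and it was at the floor in ProB (2.65 and 2.64). The fall of at least 4.00 at the ProB step (SE 0.99, adjusted p = 0.0461) ended without any 1 of its 4 arrays (0.107 to 0.156). WT engrafted cells stood at least 2.74 above ProB (SE 0.90, adjusted p = 0.150). Mx2 was at the floor in all groups but Ly6D+ CLP and WT engrafted cells, where it reached 3.04 at most.

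Rsad2 and Samd9l parted ProB from PreB cells. Rsad2 encodes viperin, which makes a nucleotide that ends viral RNA chains, and was at the floor in ProB (2.77 and 2.72). It read 6.38 and 6.97 for Ly6D+ CLP, 6.11 and 6.86 in PreB, 5.89, 5.03 and 4.49 in WT and 4.75, 6.30 and 5.49 in Pax5KO engrafted cells. It fell by at least 3.93 from Ly6D+ CLP to ProB (SE 0.64, adjusted p = 0.00794) and rose by at least 3.74 from ProB to PreB (SE 0.64, adjusted p = 0.00723). Pax5KO cells stood at least 2.76 above ProB (SE 0.59, adjusted p = 0.0311) and WT engrafted cells at least 2.39 (SE 0.59, adjusted p = 0.0581). The call in Pax5KO cells ended without Pax5KO array 2 or 3 or either ProB array (0.0724 to 0.133). Only 1 of the 3 Rsad2 probe sets was called in these comparisons. Its neighbour Cmpk2, a mitochondrial kinase for nucleotides, passed in none and was highest in WT engrafted cells (8.09, 8.13 and 7.07).

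Samd9l, a cytoplasmic restriction factor that slows growth, was highest in the engrafted groups. It read 10.54, 10.60 and 9.46 in WT and 10.02, 10.10 and 10.47 in Pax5KO cells, 9.38 and 9.64 in PreB, and 6.93 and 6.06 in ProB. CLP read between 6.83 and 9.09. It stood above ProB by 3.71 in WT (SE 0.62, adjusted p = 0.0127), by 3.70 in Pax5KO (SE 0.62, adjusted p = 0.0111) and by 3.02 in PreB cells (SE 0.68, adjusted p = 0.023), and at the ProB step its difference was -1.66 (adjusted p = 0.241). Both engrafted calls ended without ProB array 2 (0.0769 in WT and 0.0718 in Pax5KO), and the PreB call without either PreB array or ProB array 2 (0.0743 to 0.131). The PreB arrays, on which Rsad2 and Samd9l rose, also carried the neutrophil transcripts given above (mean 8.49 and 8.96 against 2.66 and 2.71 in ProB). Of the 14 plasmacytoid dendritic cell markers, 3 (Siglech, Ccr9 and Irf8) were called higher in PreB than in ProB, against 6.35% of all genes. The part of either kind of cell in the rise was not tested.

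Dtx3l had the lowest adjusted p of the 32 members in the test over the 6 groups (8.66e-05). Dtx3l is a ubiquitin ligase that acts with Parp9 in DNA repair and interferon signalling, and both genes lie with Parp14 on chromosome 16. Dtx3l read 8.74 and 9.21 for Ly6D- CLP, 9.13 and 9.39 for Ly6D+ CLP, 6.35 and 6.51 in ProB, and 7.75 and 7.92 in PreB. WT engrafted cells read 8.63, 8.65 and 8.38 and Pax5KO cells 9.26, 9.18 and 9.61. ProB, PreB, WT engrafted and Pax5KO cells thus followed each other upward without overlap. It fell by 2.83 from Ly6D+ CLP to ProB (SE 0.19, adjusted p = 1.37e-04) and rose by 1.40 to PreB (SE 0.19, adjusted p = 0.00255). It stood above ProB by 2.12 in WT (SE 0.18, adjusted p = 4.66e-04) and by 2.92 in Pax5KO cells (SE 0.18, adjusted p = 7.48e-05), calls that held under every alternative run. Between the engrafted groups the difference was 0.80 (SE 0.16, adjusted p = 0.0199), which was lost on leaving out array 1 or 3 of either group (0.0542 to 0.0649). Of its 2 probe sets, 1 was called in each of these comparisons but Pax5KO against ProB, where both were. Parp9 and Parp14, which attach ADP-ribose to proteins, passed in none. Parp14 was 10.07, 9.51 and 9.88 in Pax5KO against 7.81 and 8.34 in ProB cells (difference 1.75, SE 0.63, adjusted p = 0.195).

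Of the remaining members, Xaf1, a promoter of cell death, was called once. It read 9.08, 8.57 and 9.09 in Pax5KO, 8.12, 8.35 and 8.33 in WT engrafted, 7.88 and 7.62 in ProB, 7.54 and 7.02 in PreB, and 8.56 to 9.59 in CLP. Pax5KO cells stood 1.17 above ProB (SE 0.23, adjusted p = 0.023), which was lost on leaving out Pax5KO array 1 or 3 or ProB array 2 (0.0641 to 0.133), and the difference of -0.99 at the ProB step was near the threshold (adjusted p = 0.0516). Ifi35, which acts with Nmi in interferon signalling, and Trim30a, a brake on Toll-like receptor signalling, passed in none. Ifi35 was bright in every group (10.30 to 12.32), and Trim30a was highest in WT engrafted cells (10.16, 10.39 and 9.85, against 9.06, 8.46 and 9.60 in Pax5KO cells).

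The members called between CLP and ProB were set beside the engrafted comparison, which shares no array with that step. Of the 10 members that fell from Ly6D+ CLP to ProB, 8 had a higher mean in Pax5KO than in WT engrafted cells. So had 71.7% of the 957 genes above the floor that were called lower at that step, a share near that of the members. The median Pax5KO minus WT difference was 1.01 over the 10 members, 0.10 over the other 22 and 0.45 over the 957 genes. Bst2, Ifitm3, Rtp4 and Dtx3l were called in both, and Irf9 and Mx1 were the 2 that were lower in Pax5KO cells. Across the 32 members the Pax5KO minus WT and the Ly6D+ CLP minus ProB differences had a Pearson r of 0.23, and across the 12266 genes above the floor r was 0.32; genes are not independent replicates. The value for the members was thus below that for all genes.

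The rest of the pathway was read through 102 measured genes in 6 lists. Interferon genes themselves were mostly at the floor: all 7 measured ligands were so in CLP, ProB and Pax5KO cells, and Ifnb1 read at most 2.34 in CLP. In WT engrafted cells Ifna5 was the exception, with 3.32 on array 3. Ifng, the gene of interferon-γ, was above the floor only in PreB (5.71 and 7.42). Of 12 markers of natural killer and T cells, 5 were called higher in PreB than in ProB, against 6.35% of all genes. They were Klrd1, Nkg7, Gzma, Gzmb and Eomes. Another 6 were at the floor in PreB, among them Ncr1, a marker of natural killer cells. Between the engrafted groups 10 of the 102 genes were higher and 7 lower in Pax5KO cells, against 3.64% and 2.29% of all genes. From Ly6D+ CLP to ProB 1 rose and 22 fell, against 1.93% and 5.36% of all genes. From ProB to PreB 18 rose and 5 fell, against 6.35% and 5.19%. Against ProB, 13 were higher in WT engrafted cells, as were 3.63% of all genes, and 20 in Pax5KO engrafted cells, as were 4.22%; none was lower, against 1.3% and 1.02%. From Ly6D- to Ly6D+ CLP 1 fell, against 0.638% of all genes: Phf11d (difference -2.18, adjusted p = 0.0114).

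Of 8 receptors and kinases, 3 fell at the ProB step and none rose, against 5.36% and 1.93% of all genes. Ifngr1, Ifngr2, Jak1, Jak2 and Tyk2 were among those that did not pass. Ifnar2 read 8.90 and 8.78 for Ly6D+ CLP and 6.41 and 6.63 in ProB (difference -2.32, SE 0.16, adjusted p = 1.59e-04). Ifnar1 read 9.09 and 7.52 and then 5.55 and 3.84 (difference -3.61, SE 0.67, adjusted p = 0.0138), and Il10rb, the shared chain of the receptors for interferon-λ and IL-10, fell by 2.85 (SE 0.35, adjusted p = 0.00205). All 3 rose again at the PreB step, Ifnar1 by 2.46 and Ifnar2 by 1.21. In Pax5KO cells 2 of the 8 genes were above WT, against 3.64% of all genes: Ifnar2 stood 1.21 above WT (SE 0.13, adjusted p = 0.00103) and Ifngr1, a chain of the interferon-γ receptor, 2.33 above it (SE 0.39, adjusted p = 0.00878). Without ProB array 2 the Ifnar1 fall ended (0.0665); its rise to PreB ended without either PreB array or ProB array 2 (0.118 to 0.268), as did that of Il10rb (0.0706 to 0.0989).

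Of 11 sensors and adaptors, 4 were higher and none lower in Pax5KO than in WT engrafted cells, against 3.64% and 2.29% of all genes. Tlr7, the endosomal receptor of single-stranded RNA, read 6.63, 7.51 and 6.73 against 3.70, 3.75 and 3.05 (difference 3.46, SE 0.40, adjusted p = 0.0014). Cgas, the sensor of cytosolic DNA, read 5.62, 6.08 and 6.70 against 2.46, 3.15 and 2.63 (difference 3.39, SE 0.47, adjusted p = 0.00366). Its partner Sting1 read 10.49, 10.44 and 9.91 against 8.19, 7.78 and 8.43 (difference 2.15, SE 0.24, adjusted p = 0.00111). The sensor and its partner were thus both on the side of Pax5KO cells without overlap. Ikbke, a kinase that activates Irf3 and Irf7, stood 2.75 higher (SE 0.52, adjusted p = 0.0161), which was lost on leaving out Pax5KO array 1 or 3 or WT array 1 (0.0535 to 0.0653). The same 4 genes fell from Ly6D+ CLP to ProB, where 5.36% of all genes did, Cgas by 3.63 and Sting1 by 2.94. There the Tlr7 call ended without ProB array 2 (0.0621), and that of Ikbke without either Ly6D+ CLP array or ProB array 2 (0.0737 to 0.128).

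Other interferon-induced genes did not move as a block between the engrafted groups. Of 44 in the type I list, 3 were higher and 4 lower in Pax5KO cells, against 3.64% and 2.29% of all genes. Those higher were Ifitm1, Ifitm2 and Lgals3bp, a secreted glycoprotein (7.67, 7.49 and 5.88 against 3.41, 3.85 and 2.87; difference 3.64, SE 0.55, adjusted p = 0.00556). Of those lower, Slfn2, which guards lymphocyte quiescence, read 3.58, 3.50 and 3.54 in Pax5KO against 8.66, 8.19 and 7.22 in WT cells (difference -4.49, SE 0.35, adjusted p = 1.5e-04). Samhd1, which breaks down nucleotides, differed by -3.14 (SE 0.31), Ifi27l2a by -2.77 (SE 0.46) and the nuclear body protein Sp100 by -1.93 (SE 0.25), all called. Slfn2, Samhd1, Ifi27l2a and Sp100 were also above ProB in WT engrafted cells, by 4.56, 4.21, 4.34 and 2.98. Of 22 genes in the interferon-γ list, Gbp7, a guanylate-binding GTPase, was higher (difference 2.92, SE 0.39, adjusted p = 0.00282) and Ciita, the regulator of MHC class II genes, lower (difference -1.81, SE 0.25, adjusted p = 0.0032; at the floor in Pax5KO cells, so at least this much). Irf8, which directs dendritic and B cell fate, differed by -1.67 (SE 0.18, adjusted p = 8.18e-04). Ptpn6, the phosphatase SHP-1, differed by -1.27 (SE 0.28, adjusted p = 0.0297), a call that ended without any 1 of the 6 arrays (0.0584 to 0.118). Of all list genes called between the engrafted groups, Ifitm1 was the 1 still called when the fit held the 6 engrafted arrays alone with the number as a block.

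**Figure D5:**
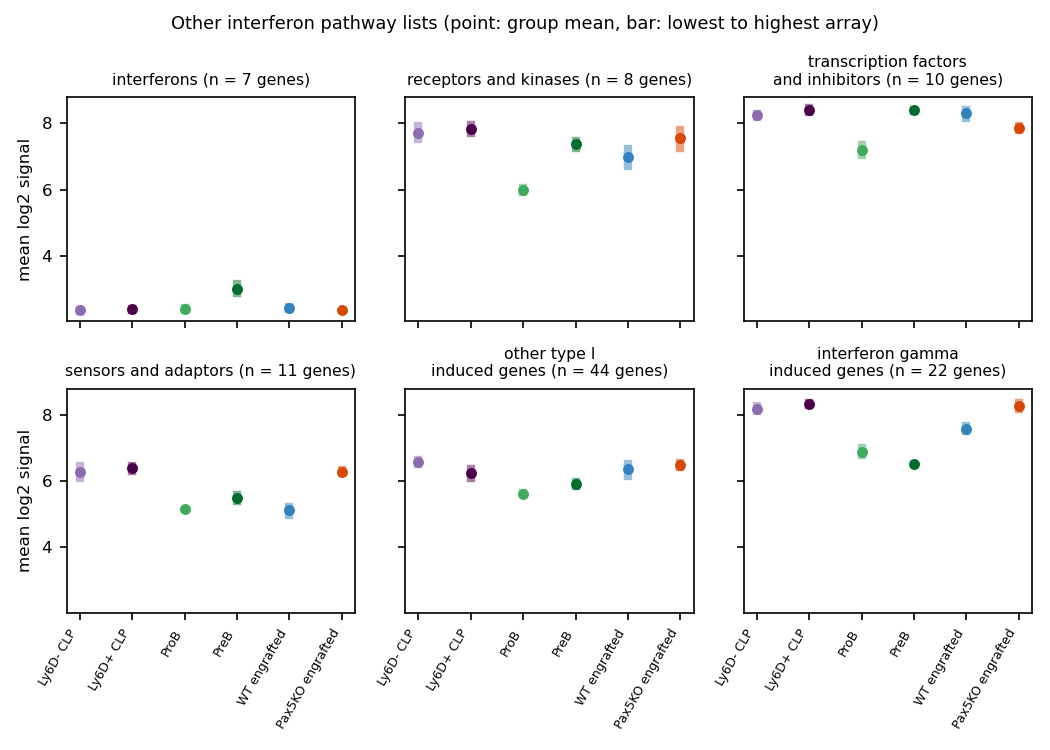
Mean log2 signal over the measured genes of each of 6 further interferon pathway lists by group (points), with bars from the lowest to the highest array. The ligand list stays near the floor of 2.32 except in PreB cells.

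In the interferon-γ list 6 of 22 fell from Ly6D+ CLP to ProB and none rose, against 5.36% and 1.93% of all genes, with a median over the list of -1.34 (-1.11 after quantile normalization). They were the GTPases Gbp3 and Gbp6, both chains of the peptide pump that loads MHC class I, Tap1 and Tap2, its partner Tapbp, and Nlrc5, a regulator of MHC class I genes. The immunoproteasome genes Psmb8, Psmb9 and Psmb10 and B2m, the light chain of MHC class I, were not called at that step. Tap1 read 11.41 and 11.48 for Ly6D+ CLP, 8.31 and 8.76 in ProB, 9.73, 9.68 and 10.48 in WT and 10.66, 10.75 and 10.91 in Pax5KO engrafted cells. It stood 2.24 above ProB in Pax5KO cells (adjusted p = 0.00392) and 1.43 in WT cells (adjusted p = 0.0337), the second call ending without any 1 of its 5 arrays (0.0531 to 0.113). In Pax5KO cells 8 of the 22 genes were above ProB, against 4.22% of all genes, among them Gbp6 (2.88), Igtp (2.50) and Irgm2 (2.41), GTPases against intracellular parasites. The Gbp6 call ended without Pax5KO array 1 or 3 or ProB array 2 (0.0502 to 0.104), that of Igtp without ProB array 2 (0.0825) and that of Irgm2 without any 1 of its 5 arrays (0.0834 to 0.163).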

How the data were processed

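Arrays were Affymetrix 3' arrays of sorted mouse bone marrow cells, 14 in 6 groups. The deposited table holds log2 signals of 45101 probe sets; RMA, GCRMA and limma are named per the submitters' processing notes, and which of them made the table, and in what version, is not given in the sources used here. With array medians of 2.41 to 2.52, the arrays were treated as scaled already. The number of arrays limits the precision.

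Symbols came from the platform annotation, updated through RefSeq (GRCm38.p6); 34945 probe sets had 1 symbol, 932 had several, 9160 had none and 64 were controls. Of the members, 14 had several probe sets, and none was called in the opposite direction by another of its probe sets. The test for single genes was two-sided and used lmFit and eBayes of limma 3.58.1 under R 4.3.3. Its design had a group mean for each of the 6 groups over the 14 arrays, with 8 residual degrees of freedom and Benjamini-Hochberg adjustment over 18193 genes. The step was tested on simulated data.

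Same-numbered Pax5KO and WT engrafted arrays deviated together from their group means (r = 0.136, 0.308 and 0.543 over 9919 genes). Their numbers were therefore taken as pairs, but only in the alternatives with a block. The main test held no block, so adjusted p-values between the engrafted groups ignore this pairing unless a block is named. Where the pairing comes from is not stated. Where nothing says that samples came from separate animals, p-values measure only the spread between these samples.

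The members and lists were chosen with earlier results of these data known. Named in full are members called in any comparison and, of the others, the 3 with the largest difference in each; of the pathway lists, at most 4 called genes per list and comparison, of which a part is printed. Other members are given for completeness. Alternatives were averaged probe sets, leaving out genes at the floor, quantile normalization, only the groups compared, array weights, a replicate block, a term for high Xist and leaving out each array. After seeing the data, a block with the engrafted arrays only and leaving out both engrafted arrays numbered 3 were added.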

Additional observations from a re-analysis of the deposited data

How the results depend on the processing

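None of the single-gene differences recomputed under the alternatives changed its sign; not every difference printed was recomputed. With groups of 2 or 3 arrays the counts of called members moved with most settings.

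Of the 5 members called between Pax5KO and WT engrafted cells, leaving out 1 array left 1 to 5. Array weights gave 14, only the groups compared 2, quantile normalization 3, a term for high Xist 3 and leaving out both arrays numbered 3 gave 2. The replicate block gave 5 in the fit of all arrays and 0 in that of the engrafted arrays only. Within CLP, the count of 0 became 1 without genes at the floor and 0 to 2 without 1 array. At the ProB step, 10 became 3 with array weights, 0 with only the groups compared, 1 with the term for high Xist and 5 to 8 without 1 array. From ProB to PreB, 5 became 3 with array weights, 1 with only the groups compared, 2 with the term, 9 without genes at the floor and 3 to 5 without 1 array. For WT engrafted cells against ProB, 6 became 1 with only the groups compared, 1 with the term, 10 without genes at the floor and 2 to 7 without 1 array. For Pax5KO cells against ProB, 11 became 4 with only the groups compared, 6 with quantile normalization, 7 without both arrays numbered 3 and 4 to 8 without 1 array. The test over 6 groups called 17, and 12 to 19 without 1 array. Fits of only 2 groups of 2 arrays have few residual degrees of freedom.

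The difference of the means over members kept its sign in all settings but from ProB to PreB, where it was -0.13 to 0.03 without 1 array and -0.66 with the term for high Xist. With that term it was 0.88 between the engrafted groups (0.27 to 0.59 without 1 array), -0.71 at the ProB step (-1.46 to -1.17) and 0.50 for WT against ProB (0.79 to 1.11). Quantile normalization gave -1.03 at the ProB step and 1.02 for Pax5KO against ProB (1.30 to 1.46 without 1 array), where averaged probe sets gave 1.17 and the replicate block 1.5. Within CLP it was -0.48 to -0.17 without 1 array. The Xist term is estimated from WT array 3 against WT arrays 1 and 2, since no other group held both Xist levels. Its shifts thus carry whatever sets WT array 3 apart and are not an adjustment for sex alone. The cause of the other shifts was not tested. Apart from the engrafted groups, same-numbered arrays had r from -0.193 to 0.164, a range that holds the 0.136 of the engrafted arrays numbered 1. No pairing was assumed there. In those comparisons the block gave 0, 9, 7, 7 and 9 calls in the order above.

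Over all named genes and settings, 1285 values stayed on their side of the threshold, 473 lost their call and 24 gained one.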

Other observations

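Members were set apart by the ISRE core in their promoter window. At the step from Ly6D+ CLP to ProB the median difference was -0.26 over the 8 measured members with a match and -1.52 over the 15 with a window and no match, and 2 and 5 of them were called. Between the engrafted groups the medians were 0.25 and 0.64, and 1 and 2 were called. In the set with a match, Oas3 and Stat2 were at the floor in both Ly6D+ CLP and ProB. They had no room to fall at that step, and no member without a match was at the floor in both. Oas3 was also at the floor in both engrafted groups. The medians of the sets are thus not on equal terms. The sets are small, members of the Ifit and Oas families share their loci, and no test was made.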
